A study of Homo sapiens with 8 samples.

Results

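The genes described here build the traffic between the endoplasmic reticulum (ER) and the Golgi apparatus: vesicle coats, the receptors that load cargo into them, and the proteins that tether and fuse the vesicles. The list held 53 genes. Members were taken as every probe set whose only gene symbol in the array annotation was on that list, which gave 123 of 54675 probe sets and 50 of 19775 named genes. USO1, KDELR2 and TMED7 had no probe set of their own symbol alone. The members fell into 4 classes: COPII (31 probe sets, 14 genes), COPI with its ARF cycle (30 probe sets, 16 genes), cargo receptors (39 probe sets, 12 of 14 listed genes), and SNAREs and tethers (23 probe sets, 8 of 9 listed genes). For 36 genes there were several probe sets, and for 14 there was 1.

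RNA came from JJN3 and RPMI-8226, established lines grown from human multiple myeloma, a cancer of plasma cells. Each line gave 4 cultures and 1 array per culture: lentivirus (LV) carrying an shRNA against XBP1, LV carrying an shRNA against IRE1, LV carrying a non-targeted (NT) shRNA, and no LV (uninfected). Infection took 16 h with 8 µg/mL polybrene and cells were harvested at 96 h. Every treatment therefore had 2 arrays, 1 from each line, and the labels name neither the shRNA sequences nor a second culture of either line, so a p-value here measures the spread between these 8 cultures. The values are log2 and were deposited with the 8-array median of each probe set at 0, so they give differences between arrays and no level, and the presence of plasma cell markers could not be checked. In bulk RNA, fewer cells of a kind and less RNA per cell cannot be told apart.

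Newly made secretory proteins leave the ER in vesicles coated by COPII and are fetched back, with escaped ER residents, in vesicles coated by COPI. Cargo receptors of the TMED, LMAN and KDEL receptor families choose what is loaded, and SNARE proteins in the vesicle and target membranes zip together to fuse them. Plasma cells secrete antibody at a very high rate, and the ER stress sensor IRE1, encoded by ERN1, splices the mRNA of XBP1 into the form that encodes an active transcription factor. XBP1 is known to raise many genes of the secretory pathway, and it binds DNA elements with an ACGT core, among them the unfolded protein response element with the core TGACGTGG.

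Some members shared a sequence feature. Members and motifs were both chosen with earlier results of these data known. In RefSeq promoters of GRCh38.p14 (250 bases before to 50 bases after each start), 45 of the 53 members had an entry. The element TGACGTGG, searched on both strands, stood in 11 of these 45 genes (24.4%), against 0.927% of all 27305 genes with a promoter, and in 13 of 60 member promoters (21.7%), against 0.729% of all 35116 promoters. Among the other genes of the pathway it stood in 1 of 44 (2.27%). It was found in 5 of 14 COPI and ARF genes, 3 of 13 COPII genes, 2 of 7 SNARE and tether genes and 1 of 11 cargo receptor genes. Windows of 30 bases around it are given here so that the bases beside each site can be compared. Capitals mark the element, and each window is written on the strand that reads TGACGTGG.
SEC23A: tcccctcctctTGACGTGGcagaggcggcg
SEC24A: gtgagagtcggTGACGTGGcggcgaggccg
SEC16A: ttcagtccggcTGACGTGGcaccagggcca
COPA: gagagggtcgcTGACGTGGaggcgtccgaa
COPB1: gagtccttggcTGACGTGGaagggggtggg
COPB2, site upstream of the start: actaagggccgTGACGTGGtgccgctgagc
COPB2, site downstream of the start: gtcagactgacTGACGTGGaacttccggga
ARF1: cccggaggcgcTGACGTGGccgccgtcaga
GBF1: tgtcagctcacTGACGTGGtaactagcctc
KDELR3: tggccgggcggTGACGTGGccagggcggcc
STX5: ttacgtgtaggTGACGTGGccgcttccagt
SCFD1: gagcggggggaTGACGTGGctgcccttacc
These sites lie at chr14:39103221-39103250 (minus strand) for SEC23A, chr5:134648595-134648624 (plus) for SEC24A, chr9:136484707-136484736 (plus) for SEC16A and chr1:160343227-160343256 (minus) for COPA. Those of COPB1 and ARF1 lie at chr11:14499841-14499870 (plus) and chr1:228082681-228082710 (plus). The COPB2 sites lie at chr3:139389825-139389854 and chr3:139389632-139389661 (both plus). The remaining sites lie at chr10:102245526-102245555 (minus) for GBF1, chr22:38468039-38468068 (minus) for KDELR3, chr11:62832049-62832078 (minus) for STX5 and chr14:30622273-30622302 (minus) for SCFD1. A match of letters is a description and shows no binding.

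Shorter parts of the element were also frequent. ACGTGG, which lies inside TGACGTGG, stood in 25 of 45 member genes (55.6%), against 11.6% of all genes, and CCACG, the complement of its last 5 bases, in 39 of 45 (86.7%), against 42.1%. CCACGTC, which lies within the complement of the element, stood in 18 of 45 (40.0%), against 3.82%. GCCACGT, which contains the complement of ACGTGG but runs past the end of the element, stood in 18 of 45 (40.0%), against 3.95%. The full ER stress element ERSE, its variant ERSE-II, the cAMP response element TGACGTCA and the composite CHOP-ATF4 motif were in 0 of 45 member genes, against 0.0916%, 0.0696%, 2.25% and 0.275% of all genes.

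The genes targeted by the shRNAs were examined first. On the arrays labelled XBP1 shRNA, XBP1 (200670_at) differed from the NT array by -1.13 in JJN3 and by -0.60 in RPMI-8226. The other XBP1 probe set, 242021_at, differed by 0.03 in JJN3 and -0.20 in RPMI-8226. On the arrays labelled IRE1 shRNA, ERN1 (235745_at) differed from the NT array by -0.89 in JJN3 but by 0.38 in RPMI-8226, and ERN1 (227755_at) by -1.16 and 0.23 in the same lines. The third ERN1 probe set, 207061_at, differed by 0.19 in JJN3 and -0.17 in RPMI-8226. On 235745_at and 227755_at the RPMI-8226 array labelled IRE1 shRNA therefore went against its label relative to the NT array. Every direction given for IRE1 shRNA rests on the arrays as labelled. In RPMI-8226 the NT array itself differed from the uninfected array by -1.02 for ERN1 (235745_at). XBP1 (200670_at) on the arrays labelled IRE1 shRNA differed from NT by -2.58 in JJN3 and -0.63 in RPMI-8226. ERN1 (235745_at) on the arrays labelled XBP1 shRNA differed from NT by -1.22 and -1.45 in the same lines. None of these differences of XBP1 and ERN1 from NT passed the threshold in the limma fit over both lines (adjusted p 0.36 and 0.21 for XBP1 200670_at with XBP1 and IRE1 shRNA).

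Under XBP1 shRNA 2 of the 123 member probe sets passed the threshold of an adjusted p of 0.05 in limma's test against NT shRNA (1.63%), both lower, where 1.21% of all 54613 probe sets tested passed and 0.681% were lower. They were ARF4, a small GTPase that helps recruit the COPI coat, and BET1, a SNARE on vesicles bound for the Golgi. ARF4 (201097_s_at) read -0.58 in JJN3 and -1.05 in RPMI-8226 with XBP1 shRNA, against 0.34 and 0.31 with NT shRNA and 0.07 and -0.15 uninfected. Both XBP1 shRNA arrays were below all 6 others. The difference from NT was -1.14 ± 0.157 (SE, n = 2 lines, adjusted p = 0.0198, limma), a level of 45.2% of NT. It no longer passed without either NT array (adjusted p 0.177 and 0.0791, limma), without the RPMI-8226 XBP1 shRNA array (adjusted p = 0.0672, limma) or without the block for cell line. The other ARF4 probe set, 201096_s_at, differed by -0.74 (adjusted p = 0.0756, limma).

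BET1 (202710_at, its only probe set) read -0.82 in JJN3 and -0.41 in RPMI-8226 with XBP1 shRNA, against 0.02 and 0.53 with NT shRNA and -0.02 and 0.55 uninfected. The XBP1 shRNA arrays were below every NT and uninfected array, also across lines. The difference from NT was -0.89 ± 0.164 (SE, n = 2 lines, adjusted p = 0.0449, limma), and BET1 stood at 54.1% of NT. The call was lost without any 1 of the 8 arrays (adjusted p 0.0525 to 0.24, limma) and without the block for cell line. The stretch upstream of BET1 is printed because BET1 passed the threshold in 1 silencing contrast and held the smallest adjusted p of all members in the pooled silencing contrast. It is chr7:94004356-94004605 of GRCh38.p14, minus strand, and capitals mark its CCACG, present as CGTGG.
BET1: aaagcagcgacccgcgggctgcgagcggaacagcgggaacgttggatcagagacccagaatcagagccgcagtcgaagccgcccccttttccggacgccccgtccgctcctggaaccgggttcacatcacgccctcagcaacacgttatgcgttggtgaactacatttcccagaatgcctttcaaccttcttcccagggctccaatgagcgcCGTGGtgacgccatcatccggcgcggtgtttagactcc
BET1 had no TGACGTGG in its promoter window.

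Counting ARF4 and BET1, 34 members had an unadjusted p under 0.05 with XBP1 shRNA (9 higher, 25 lower), 27.6% of the members beside 13.7% of all probe sets, of which 6.76% were higher and 6.95% lower. The members nearest to the threshold on its outer side were SEC23A (212887_at, 0.81, adjusted p = 0.0503, limma), an inner coat subunit of COPII, and SEC31A (210616_s_at, -0.71), an outer coat subunit. SEC22B (233020_at), a SNARE used in both directions of ER-Golgi traffic, differed by -0.76. Its other probe set, 214257_s_at, read 0.11 in JJN3 and -0.83 in RPMI-8226 with XBP1 shRNA, against 0.26 and -0.54 with NT. The median difference was -0.002 for COPII, -0.03 for COPI and the ARF cycle, -0.17 for cargo receptors and -0.20 for SNAREs and tethers, beside 0.0006 over all probe sets. Cargo receptors had 30 of 39 probe sets below 0, and COPII had 16 of 31. Of the 133 probe sets of other pathway genes, ERGIC1 (224577_at, -0.87), a membrane protein of the ER-Golgi intermediate compartment, and TRAPPC13 (236526_x_at, 0.93), a tether subunit, passed.

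Set against the uninfected arrays in place of NT, XBP1 shRNA gave 5 lower members, where 2.11% of all probe sets passed and 1.22% were lower. These were ARF4 (201097_s_at, -0.77) and BET1 (-0.88) again, both SEC31A probe sets (200945_s_at, -0.79, and 210616_s_at, -0.91) and GOSR1 (213020_at, -0.93), a Golgi SNARE. GOSR1 (1555199_at) differed the other way, by 0.51, and GOSR1 (213021_at) by -0.51, neither past the threshold. The other ARF4 probe set, 201096_s_at, did not pass here either, and its lines ran opposite ways. It read -0.21 in JJN3 and -0.38 in RPMI-8226 with XBP1 shRNA, against 0.14 and -0.43 uninfected. In this contrast the median was -0.07 for cargo receptors and -0.11 for SNAREs and tethers. It was -0.03 for COPII and -0.01 for COPI and the ARF cycle. The plasma cell marker list had a median difference of -0.47 from NT with XBP1 shRNA over 20 probe sets of 10 genes, with PRDM1 lower; the part of cell state in the transport values was not tested. The added poly-A control transcripts (24 probe sets) were likewise highest under XBP1 shRNA within each line, with medians of 0.19 in JJN3 and 0.43 in RPMI-8226, and their part was not tested.

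On the arrays labelled IRE1 shRNA, 1 member passed against NT shRNA in limma's test, higher, where 0.0183% of all probe sets passed and 0.00366% were higher. It was TMED4 (1558487_a_at), a member of the p24 family of cargo receptors that cycles between the ER and the Golgi. This probe set read 0.40 in JJN3 and 1.28 in RPMI-8226 with IRE1 shRNA, -0.83 and 0.14 with XBP1 shRNA, -0.91 and -0.14 with NT shRNA, and -0.49 and 0.66 uninfected. Within each line the IRE1 shRNA array was the highest of the 4, although the lines overlapped. The difference from NT was 1.37 ± 0.150 (SE, n = 2 lines, adjusted p = 0.0473, limma). NT itself read 0.61 below uninfected for this probe set (-0.61, unadjusted p = 0.0027, limma; adjusted p = 0.87), and against the uninfected arrays 0 members passed with IRE1 shRNA in limma's test (0.00183% of all probe sets), with 20 at an unadjusted p under 0.05. The call against NT was lost in each of the 12 alternatives run on this probe set, among them leaving out any 1 array. Without the RPMI-8226 array labelled IRE1 shRNA the difference was 1.41. With the probe set of highest SD for each gene, a unit outside these 12, 1 member passed, higher, beside 0.0607% of all genes.

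Of the other 4 TMED4 probe sets none passed, and 2 differed in the opposite direction. TMED4 (224680_at) read -0.76 in JJN3 and -0.46 in RPMI-8226 with IRE1 shRNA, 0.75 and 0.42 with XBP1 shRNA, 0.05 and 0.11 with NT shRNA and -0.05 and -0.35 uninfected. Here the IRE1 shRNA array was the lowest of each line. Its difference from NT was -0.69 ± 0.183 and that of 224676_at was -0.49 ± 0.156 (SE, n = 2 lines, adjusted p 0.26 and 0.34, limma), while 1558052_at and 1558053_s_at differed by 0.28 and 0.07. No direction is given for TMED4 as a gene.

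**Figure D1:**
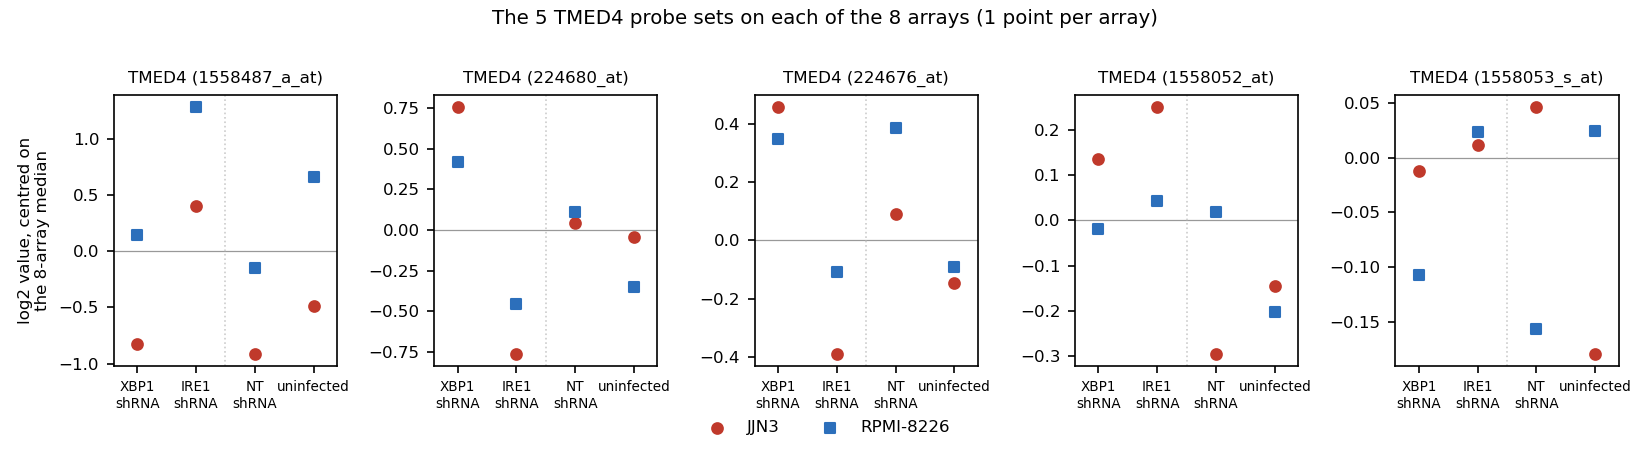
The 5 probe sets of TMED4 on each array (y axis: log2 value centred on the 8-array median, with its own range in each panel; x axis: treatment; circles JJN3, squares RPMI-8226). With IRE1 shRNA, 1558487_a_at reads 0.40 and 1.28, the highest of each line, whereas 224680_at reads -0.76 and -0.46, the lowest of each line.

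The remaining members lay low with IRE1 shRNA without passing. Of the 123, 94 were below 0, and 36 had an unadjusted p under 0.05 (3 higher, 33 lower), 29.3% beside 9.47% of all probe sets (4.41% higher, 5.05% lower). The median was -0.29 for cargo receptors, -0.23 for SNAREs and tethers, -0.17 for COPII and -0.08 for COPI and the ARF cycle, beside 0.004 over all probe sets. Against the uninfected arrays the median was -0.11 for both cargo receptors and COPII. It was -0.20 for SNAREs and tethers and -0.04 for COPI and the ARF cycle. Against NT, the median over all members was -0.26 in JJN3 and -0.15 in RPMI-8226. The plasma cell marker list had a median of -0.23 over 20 probe sets (between -1.60 and 0.30), and its part was not tested. SEC22B (233020_at) had the largest negative difference, -0.99 ± 0.185 (adjusted p = 0.15, limma), with -1.17 in JJN3 and -0.81 in RPMI-8226. The other SEC22B probe set, 214257_s_at, differed less. It read 0.16 in JJN3 and -0.89 in RPMI-8226 with IRE1 shRNA, against 0.26 and -0.54 with NT. LMAN1, the mannose lectin that carries glycoproteins out of the ER, differed by -0.65 and -0.53 on the 2 probe sets 203294_s_at and 203293_s_at, and by -0.01 on 224629_at. COPZ1 (222386_s_at), a COPI subunit, differed by -0.77. Its other probe set, 217726_at, read -0.73 in JJN3 and 0.29 in RPMI-8226 with IRE1 shRNA, against -0.80 and 0.25 with NT. None of the other pathway genes passed in limma's test (17 of 133 probe sets had an unadjusted p under 0.05), and their median was -0.08. The hybridisation controls (18 probe sets) had a median of 0.42 on the JJN3 array labelled IRE1 shRNA and between -0.15 and 0.09 on the other 7 arrays, and their part was not tested.

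The contrast of IRE1 with XBP1 shRNA shares no control array. It gave 3 member probe sets in limma's test (2.44%), 2 higher and 1 lower with IRE1 shRNA, where 1.9% of all probe sets passed (0.908% higher, 0.987% lower). TMED4 (1558487_a_at) was higher with IRE1 shRNA by 1.18 ± 0.150 (adjusted p = 0.0128, limma) and TMED4 (224680_at) differed by -1.19 ± 0.183 (adjusted p = 0.0203, limma), the opposite direction within 1 gene. ARF4 (201097_s_at) was higher with IRE1 shRNA, 0.35 in JJN3 and -0.07 in RPMI-8226, against -0.58 and -1.05 with XBP1 shRNA, a difference of 0.96 ± 0.157 (SE, n = 2 lines, adjusted p = 0.0238, limma). The groups of 2 did not overlap. With IRE1 shRNA, ARF4 (201097_s_at) differed from NT by -0.19. BET1 differed by 0.21 ± 0.164 between the shRNAs and did not pass (adjusted p = 0.68, limma). Without the RPMI-8226 array labelled IRE1 shRNA, of these 3 probe sets TMED4 (224680_at, -1.44, adjusted p = 0.0483, limma) alone passed, while TMED4 (1558487_a_at) differed by 1.23 and ARF4 (201097_s_at) by 1.05. Leaving out the JJN3 XBP1 shRNA array, the JJN3 array labelled IRE1 shRNA, or the block for cell line left 0 of the 3 past the threshold (224680_at: adjusted p 0.0923, 0.217 and 1, limma), and ARF4 alone was lost on leaving out XBP1 shRNA in RPMI-8226 (adjusted p = 0.0893, limma). The contrasts of each shRNA with NT share the NT arrays, so their values are given side by side and not compared further.

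Pooling both shRNAs (silenced, 4 arrays) against NT and uninfected (control, 4 arrays) gave 0 members past the threshold in limma's test, as for all 54613 probe sets (0%). Of the members, 29 had an unadjusted p under 0.05 (5 higher, 24 lower), 23.6% beside 9.3% of all probe sets (4.48% higher, 4.82% lower). In 20 of 123 (16.3%), from 13 genes, both silenced arrays were below both controls in each line, beside 4.11% of all probe sets, and in 1 (0.813%), SEC23A, they were above, beside 4.36%. By class, members below both controls numbered 6 of 31 in COPII, 2 of 30 in COPI and the ARF cycle, 6 of 39 in cargo receptors and 6 of 23 in SNAREs and tethers. The median was -0.12 over the members and 0.009 over all probe sets, while that of the other pathway genes was -0.009. The plasma cell marker list, which includes XBP1, had a lower median than the members, -0.35 over 20 probe sets (between -1.25 and 0.04), none past the threshold, and its part in the members' values was not tested.

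SNAREs and tethers held the members with the smallest adjusted p. SEC22B (233020_at) read 0.69 (XBP1 shRNA) and 0.20 (IRE1 shRNA) in JJN3, against 1.38 (NT) and 1.48 (uninfected), and -1.04 and -1.01 in RPMI-8226, against -0.20 and -0.48. The silenced arrays were below the controls within each line, and the lines did not overlap. The difference was -0.84 ± 0.134 (SE, n = 4 silenced arrays, adjusted p = 0.149, limma), and that of the other probe set, 214257_s_at, was -0.32 ± 0.131. BET1 differed by -0.78 ± 0.116 (adjusted p = 0.146, limma), with silenced arrays at -0.82 and -0.87 in JJN3 and at -0.41 and 0.07 in RPMI-8226. Its values with quantile normalization and without the RPMI-8226 array labelled IRE1 shRNA did pass, at -0.95 (adjusted p = 0.0493, limma) and -0.88 (adjusted p = 0.0432, limma). GOSR1 (213021_at) differed by -0.37, the same in both lines to 2 decimals. GOSR1 (1555199_at) read 0.96 and 0.07 in JJN3 with XBP1 and IRE1 shRNA, against 0.66 and 0.07 with NT and uninfected. In RPMI-8226 it read -0.14 and -0.15, against -0.07 and -0.26. STX5, YKT6, BET1L and SCFD1 lay between -0.21 and 0.09 on all their probe sets, and the 9 probe sets of GOSR2 between -0.48 and -0.04.

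Among cargo receptors, all 3 probe sets of TMED2 were below both controls in each line. TMED2 (204426_at) read -0.20 and -0.23 in JJN3 with XBP1 and IRE1 shRNA and -0.13 and -0.24 in RPMI-8226, against 0.42 and 0.19 in JJN3 and 0.16 and 0.13 in RPMI-8226 with NT shRNA and uninfected. No silenced array reached any control array, in either line. The difference was -0.42 ± 0.099 (SE, n = 4 silenced arrays, adjusted p = 0.22, limma). TMED2 and TMED10 are p24 proteins that work as a complex in both coats. TMED10 (212352_s_at) differed by -0.32 ± 0.095. SURF4, a receptor that exports lipoproteins and other soluble cargo, differed by -0.39 ± 0.107 on 222978_at and by -0.35 and -0.36 on the others.

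In COPII, SEC24D (202375_at), a subunit that binds cargo signals, read 0.27 (XBP1 shRNA) and -0.63 (IRE1 shRNA) in JJN3, against 0.98 (NT) and 0.92 (uninfected), and -0.62 and -0.27 in RPMI-8226, against -0.27 and 0.85. In RPMI-8226 IRE1 shRNA differed from NT by only -0.01, and the uninfected array alone stood high. The difference was -0.94 ± 0.262 (adjusted p = 0.28, limma). PREB (217861_s_at), which activates the COPII GTPase SAR1, differed by -0.38 ± 0.108. SEC23A (212887_at) was the 1 member above the controls in both lines: 0.84 and 0.54 in JJN3 with XBP1 and IRE1 shRNA, against 0.17 and 0.10 with NT and uninfected, and -0.10 and -0.61 in RPMI-8226, against -1.05 and -0.68. Its difference was 0.53 ± 0.141 (SE, n = 4 silenced arrays, adjusted p = 0.27, limma), and its second probe set, 204344_s_at, had 0.30 ± 0.134. SEC23B, its close relative, had -0.39, -0.24 and -0.10 on its 3 probe sets. In COPI and the ARF cycle the differences of the 3 leading genes ran both ways, with ARF3 (200734_s_at) at 0.31 ± 0.113, COPG2 (223457_at) at 0.37 ± 0.159 and COPA (208684_at) at -0.34 ± 0.141. The adjusted p of these 3 lay between 0.43 and 0.51 (limma).

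**Figure D2:**
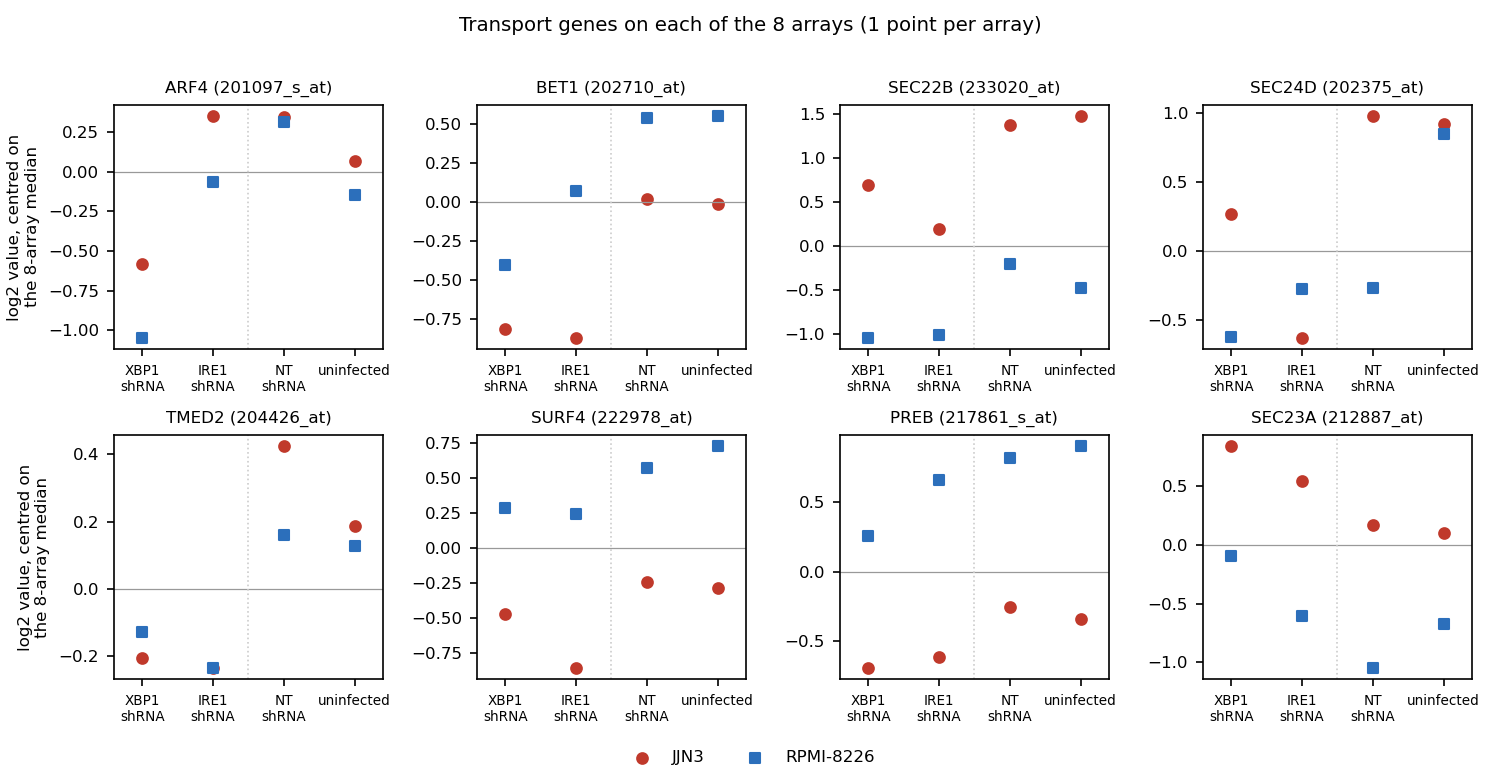
Values of 8 member probe sets on each of the 8 arrays (y axis: log2 value centred on the 8-array median, with its own range in each panel; x axis: treatment, silenced left of the dotted line; circles JJN3, squares RPMI-8226). TMED2 lies between -0.24 and -0.13 on the 4 silenced arrays and between 0.13 and 0.42 on the 4 controls, while ARF4 is low on the XBP1 shRNA arrays, at -0.58 and -1.05.

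**Figure D3:**
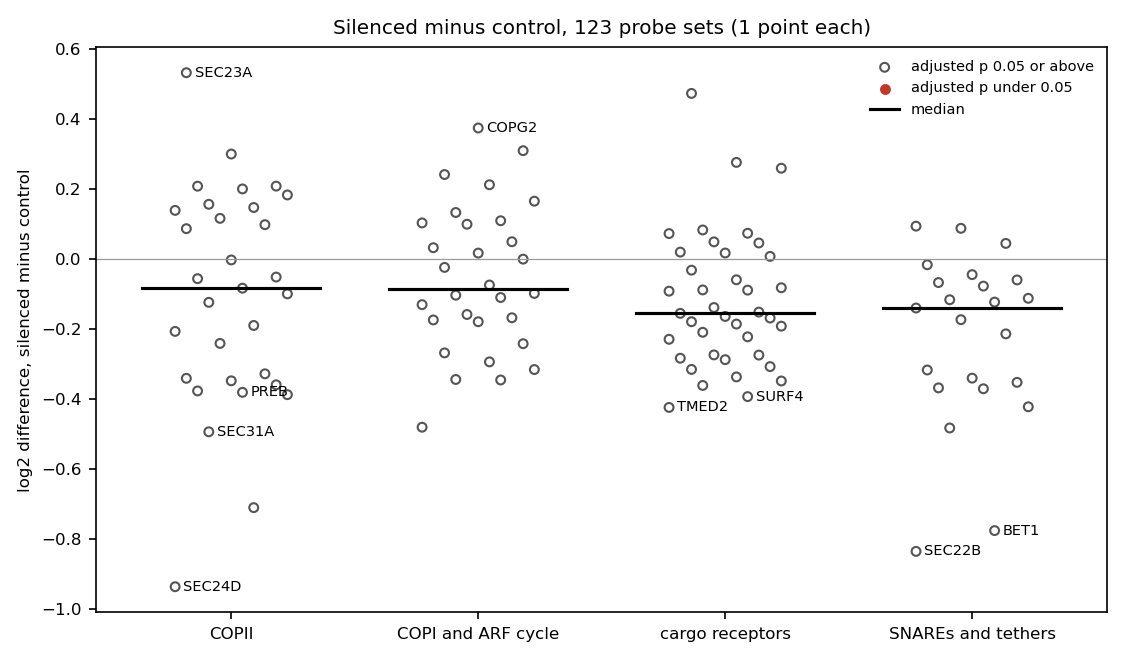
Silenced minus control log2 difference of each of the 123 member probe sets by class (points: probe sets; bars: class medians; no point passes the threshold). Medians run between -0.16 and -0.08, and SEC24D, SEC22B and BET1 lie lowest, at -0.94, -0.84 and -0.78.

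Whether silencing acted differently in the lines was tested as an interaction. It gave 0 members past the threshold in limma's test (0% of all probe sets) and 1 with an unadjusted p under 0.05, beside 5.23% of all. That member was SEC24D (215209_at), silenced minus control -1.18 in JJN3 and -0.24 in RPMI-8226, with a difference between lines of -0.93 ± 0.373 (adjusted p = 0.95, limma). The unlike treatments of a line served as its replicates in this fit. Lentivirus carrying NT shRNA, given with polybrene, against uninfected cells also gave 0 members in limma's test (0% of all probe sets). In this contrast 10 members had an unadjusted p under 0.05 (7 higher, 3 lower), 8.13% beside 5.57% of all (2.9% higher, 2.68% lower). The largest were TMED4 (1558487_a_at, -0.61), TMED3 (208837_at, 0.60) and ARF4 (201096_s_at, 0.59), and in each the difference was larger in RPMI-8226. The cargo receptor median was 0.16, with 31 of 39 probe sets above 0.

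The lines differed far more than the treatments. Between JJN3 and RPMI-8226, 80 of 123 members passed in limma's test (65%), 42 higher and 38 lower in JJN3, where 56% of all probe sets passed, 22.8% higher and 33.3% lower. The median was 0.02 over the members and -0.14 over all probe sets. By gene, 22 of 50 had only higher calls, 17 only lower calls, 5 had both and 6 had none, where 22% of all 19775 named genes had only higher calls and 44.1% only lower ones. In 32 members (26%) every JJN3 array was above every RPMI-8226 array, beside 18.9% of all probe sets, and in 28 (22.8%) every JJN3 array was below, beside 29.8%. Actin's 3' probe set minus its 5' probe set, a measure of RNA and cDNA length, also separated the lines, at 0.13 to 0.42 in JJN3 and -0.61 to -0.43 in RPMI-8226; its part in the line differences was not tested. That of GAPDH lay between -0.08 and 0.06 on all arrays.

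KDELR3, a receptor that returns escaped ER chaperones by their C-terminal KDEL signal, differed most. KDELR3 (204017_at) read between 2.35 and 2.68 on the 4 JJN3 arrays, against -2.79 to -2.35 on the 4 RPMI-8226 arrays. No treatment moved it across the gap. JJN3 was higher by 5.01 ± 0.109 (SE, n = 4 arrays each, adjusted p = 3.17e-09, limma), or 32.1-fold. The other KDELR3 probe sets gave 3.09 ± 0.137 (207265_s_at) and 0.75 ± 0.097 (207264_at). Its paralog KDELR1 was lower in JJN3, at -0.88 ± 0.106 (200922_at) and -0.83 ± 0.103 (1555575_a_at), with adjusted p 0.000121 and 0.000147 (limma). The stretch upstream of KDELR3 is printed because it holds the element and the gene has the largest difference. It is chr22:38467846-38468095 of GRCh38.p14, plus strand, with TGACGTGG (read here as its complement) and CCACG in capitals on either strand.
KDELR3: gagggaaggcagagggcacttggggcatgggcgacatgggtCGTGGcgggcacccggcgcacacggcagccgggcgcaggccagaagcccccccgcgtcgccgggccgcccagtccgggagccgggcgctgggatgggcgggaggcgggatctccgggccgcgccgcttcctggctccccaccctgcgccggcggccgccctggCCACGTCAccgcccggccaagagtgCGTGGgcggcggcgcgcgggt

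SURF4 went the other way on all 3 of its probe sets. SURF4 (222979_s_at) read between -1.36 and -0.62 in JJN3, against 0.62 to 1.12 in RPMI-8226, a difference of -1.74 ± 0.115 (adjusted p = 2.58e-06, limma), and 222977_at and 222978_at gave -1.49 and -0.92. Its upstream stretch, chr9:133376061-133376310 (minus strand), is shown beside that of KDELR3 as a cargo receptor promoter that holds CCACG, in capitals as CGTGG, at 4 places and no TGACGTGG.
SURF4: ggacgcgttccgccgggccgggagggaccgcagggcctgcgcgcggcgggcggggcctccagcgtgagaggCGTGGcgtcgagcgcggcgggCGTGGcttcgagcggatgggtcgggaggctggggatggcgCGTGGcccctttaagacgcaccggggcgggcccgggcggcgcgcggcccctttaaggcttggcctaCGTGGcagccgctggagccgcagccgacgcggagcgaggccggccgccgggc
MCFD2, the partner of LMAN1 in carrying clotting factors, was lower in JJN3 on all 3 probe sets, between -1.05 and -0.56. LMAN1 itself was higher on 1 of 3 (203294_s_at, 0.43 ± 0.127).

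In COPII, 9 of 14 genes had only higher calls in JJN3 and 4 only lower ones. The class median was 0.21 over probe sets, 0.56 with the probe set of highest SD for each gene and 0.43 with the mean of each gene's probe sets, and it ran between 0.11 and 0.30 when 1 array was left out. SEC23A was higher on both probe sets, by 1.04 ± 0.111 and 1.02 ± 0.111 (adjusted p 5.33e-05 and 6.35e-05, limma). SEC31B (1.13 ± 0.134), SEC24D (215209_at, 1.31 ± 0.228) and SEC24B (0.91 ± 0.142) were also higher. The 3 probe sets of SEC24D ran from 0.35 to 1.31, and 2 of them passed. PREB read between -0.70 and -0.25 in JJN3, against 0.25 to 0.90 in RPMI-8226, and was lower in JJN3 (-1.13 ± 0.104, adjusted p = 2.04e-05, limma). The GTPases SAR1A and SAR1B, which PREB activates, were lower too, on 2 of 3 and 3 of 5 probe sets, down to -0.57 and -0.73.

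COPI subunits differed in both directions. COPB1 (201359_at, 0.98 ± 0.121), COPB2 (201098_at, 0.71 ± 0.106), COPG2 (223457_at, 0.67 ± 0.146) and ARCN1 (0.36 ± 0.107) were higher in JJN3 on these probe sets. COPB1 (233308_at, 0.10) did not pass. COPB2 (226256_at, -0.15) and COPG2 (233569_at, -0.03) had the opposite sign and did not pass either. COPE (201264_at, -1.38 ± 0.110, adjusted p = 8.37e-06, limma) and COPZ1 (217726_at, -0.96 ± 0.098) were lower. COPE (201264_at) read between -1.01 and -0.59 in JJN3, against 0.59 to 0.75 in RPMI-8226. The other COPE probe set, 220469_at, differed by -0.06 and did not pass. GBF1, the exchange factor that loads ARF1 with GTP at the Golgi, was higher by 0.87 ± 0.120, and ARF1 by 0.50 ± 0.116, while ARF3, ARF5, ARFGAP2 and ARFGAP3 were lower on between 1 and 2 probe sets each, by at most 0.50 (ARFGAP2 211975_at, -0.50). SNAREs did so too: SEC22B (233020_at, 1.62 ± 0.131), GOSR1 (213021_at, 1.17 ± 0.102) and the SNARE regulator SCFD1 (233229_at, 0.91 ± 0.099) were higher, and STX5 (-0.67 ± 0.122) and BET1 (-0.61 ± 0.116) were lower.

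Some genes gave calls of both signs and have no single direction. COPA (208684_at) was higher by 1.89 ± 0.139, whereas COPA (214337_at) was lower (-0.86 ± 0.098). GOSR2 (243880_at) read between -1.34 and -0.89 in JJN3, against 0.89 to 1.74 in RPMI-8226 (-2.59 ± 0.143, adjusted p = 7.8e-07, limma), while GOSR2 (213180_s_at) was higher by 0.50 and 5 of its 9 probe sets did not pass. TMED5 (239283_at, 1.68 ± 0.113), TMED3 (242928_at, 1.48 ± 0.157) and TMED10 (238886_at, 0.98 ± 0.135) were higher on these probe sets, and each also had probe sets that were lower. Over the 36 genes with several probe sets, 13 had line differences of both signs. Probe sets with the suffix _s_at or _x_at can, by design, match transcripts of more than 1 gene.

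Other genes of the pathway had 83 of 133 probe sets past the threshold between the lines, 33 higher and 50 lower. ARFGEF1, an ARF exchange factor of the trans-Golgi, was higher in JJN3 on 3 probe sets by 2.43 to 2.82, MIA2 (204055_s_at), a cargo organiser at ER exit sites, was higher by 2.24 ± 0.113, and the scaffold SEC16B (228150_at) was lower (-1.80 ± 0.110).

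**Figure D4:**
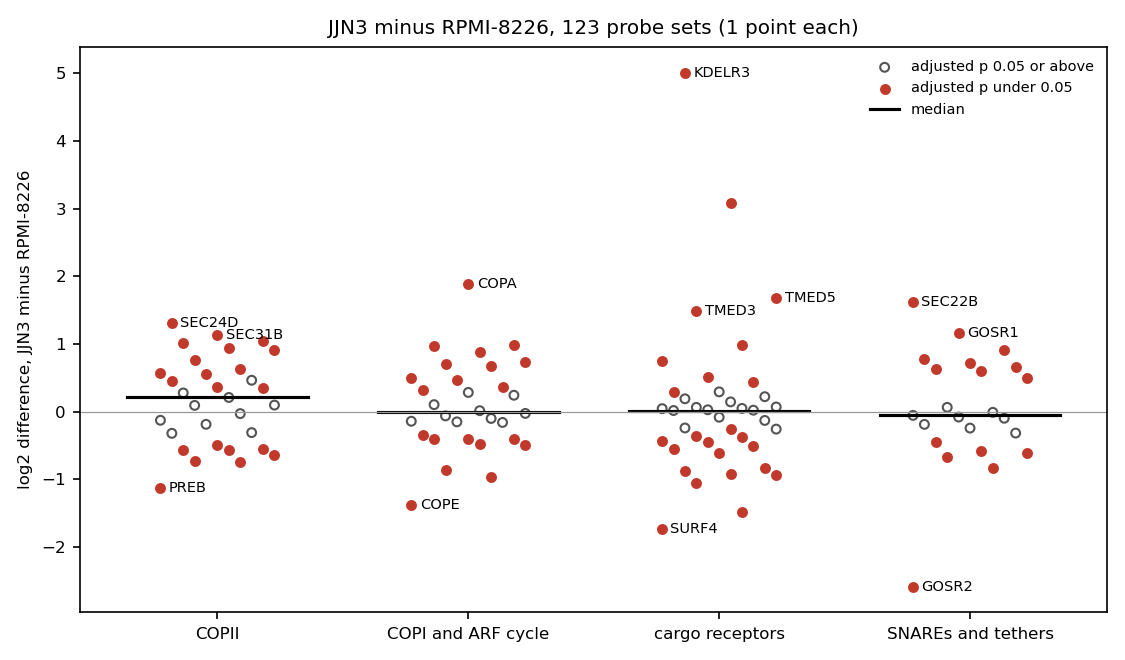
JJN3 minus RPMI-8226 log2 difference of each of the 123 member probe sets by class (filled points: adjusted p under 0.05; open points: others; bars: class medians). KDELR3 stands apart at 5.01 and 3.09, GOSR2 lies lowest at -2.59, and the COPII median is 0.21.

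The line difference was set beside the promoter element. Between the lines, JJN3 minus RPMI-8226, XBP1 differed by 0.40 on 200670_at, which did not pass, and by -0.43 on 242021_at, which did. ERN1 differed by -2.58 on 235745_at and -1.33 on 227755_at, both past the threshold, and by -0.27 on 207061_at, not past it. Their part in the members' line differences was not tested. Of 23 member probe sets from the 11 genes with TGACGTGG, 16 were higher in JJN3 and 4 lower, with a median of 0.71. Of 84 from the 33 genes with a promoter entry without it, 22 were higher and 32 lower, with a median of -0.10. By gene, 8 of the 11 had only higher calls, 2 (SEC24A and STX5) only lower ones and 1 (COPA) both, whereas among the 33 there were 11 with only higher calls, 13 with only lower ones, 4 with both and 5 with none. Outside the members, genes with the element (169 genes, 386 probe sets) had 23.1% of probe sets higher in JJN3 and a median of -0.12, near the 23.8% and -0.14 of genes without it. The median silenced minus control difference was -0.08 in members with the element and -0.13 in members without it. These counts and medians were not tested, since the motifs were chosen with earlier results of these arrays known.

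**Figure D5:**
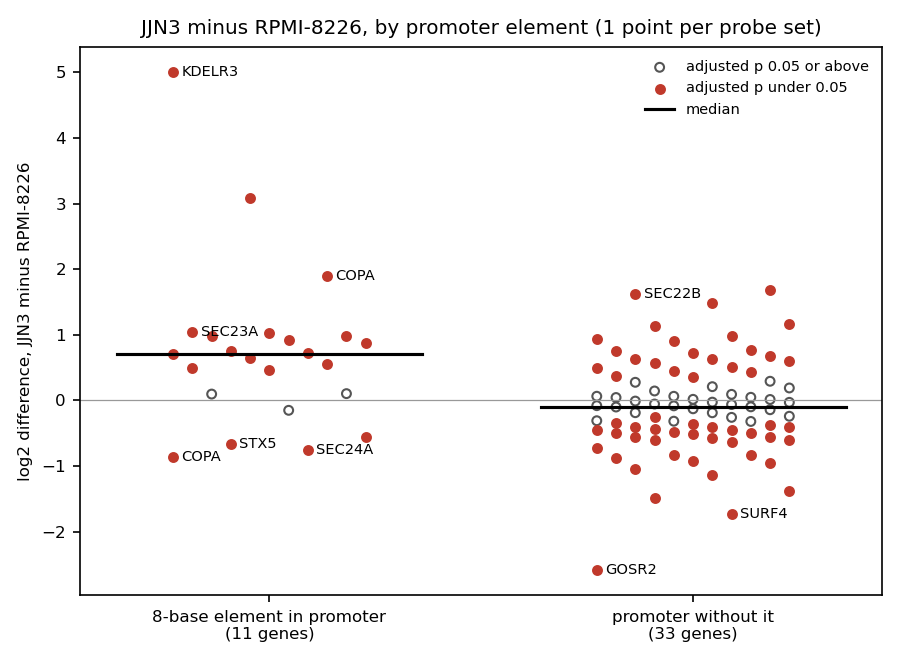
JJN3 minus RPMI-8226 log2 difference of member probe sets, split by whether the promoter window holds TGACGTGG (left, 11 genes) or not (right, 33 genes); filled points have an adjusted p under 0.05 and bars are medians. The median is 0.71 with the element and -0.10 without it, and the points on the left that are below 0 with an adjusted p under 0.05 are 1 of COPA, 1 of STX5 and 2 of SEC24A.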

How the data were processed

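RNA of 8 myeloma cultures was hybridised to Affymetrix U133 Plus 2.0 arrays. RMA was named in the submitters' processing notes, and its version is not given in the sources used here. The deposited values were taken as log2, the scale RMA returns; the base is not stated in the labels, and folds and percentages assume base 2. Each probe set had a median of 0 over the 8 arrays (largest deviation 5e-07), so neither levels nor signal over background were known; the number of arrays limits the precision. Values ran from -5.73 to 5.45, and 0 of 28 array pairs were identical.

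GEO's platform annotation supplied the gene symbols (41097 with 1 symbol, 1801 with several, 11777 with none). Differences were fitted in limma 3.58.1 (R 4.3.3; lmFit, eBayes, two-sided) on 54613 probe sets, 62 control probe sets (0.113%) left out, with Benjamini-Hochberg adjustment over all of them and a threshold of 0.05; ± is the SE of the fit. The steps were tested on simulated data. The cell line was a block for treatments, and treatment for the lines. The lines pair the arrays: deviations of arrays of 1 line correlated at 0.897 to 0.929 over the 6 pairs of treatments.

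Named members were those past the threshold (at most the 12 largest in a comparison), the 3 leading genes of each class by moderated t in silenced against control and in JJN3 against RPMI-8226, and their discordant probe sets; other members are named by class, as examples chosen with their values seen. Members, lists and motifs were chosen with earlier results of these data known. Alternatives were the unit (1 probe set of highest SD, or the mean, per gene), quantile normalization, a filter on low variation, no block, the uninfected control and leaving out each array. Promoters came from a set of RefSeq promoters (GRCh38.p14) from which chr8 was left out. SEC24D, ARF4, ARFGAP1, TMED4, TMED9, KDELR2, BET1L and USO1 had no entry in that set.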

Additional observations from a re-analysis of the deposited data

Results flagged for a closer look

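Among 54 groups of 4 arrays of a line (27 named probe sets in each line), 2 held an array whose gap to its nearest neighbour exceeded Dixon's critical value for 4 samples; chance marks about 1 in 20 groups. KDELR3 (207265_s_at) read 1.30 on the JJN3 array labelled IRE1 shRNA, against 1.72 to 1.77 on the other JJN3 arrays, a gap of 0.884 of the range. SURF4 (222979_s_at) read 1.12 on the RPMI-8226 NT shRNA array, against 0.62 to 0.65 on the other RPMI-8226 arrays, a gap of 0.933 of the range.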

How the results depend on the processing

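The count of members past the threshold depended on the settings in each treatment contrast that had any. Without the replicate block for cell line, the counts were 0 for XBP1 shRNA against NT (2 with it), 0 for IRE1 shRNA against NT (1) and 0 for IRE1 against XBP1 shRNA (3); without the treatment block the line comparison had 66 (80). Against uninfected cells the counts were 5 for XBP1 and 0 for IRE1 shRNA. With the mean of a gene's probe sets, IRE1 against NT and IRE1 against XBP1 shRNA each had 0. With the probe set of highest SD for each gene, XBP1 against NT had 3, beside 2.2% of all genes. By that unit IRE1 against NT had 1 (0.0607% of all genes) and IRE1 against XBP1 shRNA had 2 (3.32%). These per-gene units are not among the alternatives counted by probe set below. Quantile normalization gave 0 for IRE1 against NT and 1, BET1, for silenced against control, and the filter on low variation gave 0 for IRE1 against NT. Between the lines 43 genes passed by the probe set of highest SD and 40 by the mean. Leaving out 1 array gave 0 to 1 for XBP1 against NT (0 without either NT array), 0 to 0 for IRE1 against NT, 0 to 3 for IRE1 against XBP1 shRNA, 0 to 1 for silenced against control (1 without the RPMI-8226 array labelled IRE1 shRNA) and 70 to 71 for the lines. For NT against uninfected and for the interaction the count was 0 in every alternative run. Where the cause is not fewer arrays or genes, it was not tested. The 6 treatment calls were lost in 38 of their 69 alternatives, 28 of them among the 48 that left out 1 array; TMED4 (1558487_a_at) against NT was lost in 12 of 12. The other named probe sets had 307 alternative values. In the main fit these probe sets either did not pass or were line differences. Of the 307, 0 were lost, 2 newly passed (both BET1) and 0 reversed. Those that did not pass in the main fit could not be lost. Of 368 class medians, 92 were identical to the value reported, 178 moved by less than their spread and 98 by more. With 2 arrays for each treatment and no intensities, low signal could not be told from small change.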
